A study of Arabidopsis thaliana with 60 samples.

Results

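LHCB4.3 (AT2G40100) was followed across an Arabidopsis thaliana seedling array series through the ATH1 probe set 265722_at. It is the probe set that names only this gene in the platform annotation, and it is 1 gene of the 13356 that are named by a probe set with a single gene. The gene was selected on its signal over all 60 arrays, set in every series against the mock. Its own levels and differences are therefore a description and carry no test, and tests are given only for other genes.

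Whole Col-0 seedlings, 7 days old, received a compound or a mock treatment, and total RNA was hybridised with 2 arrays in each of 30 groups. The labels tie each treated group to the mock of its own series, called F1, F2 or G. In series F1 the treatment lasted 3 h and 18 groups were treated, with Brz91, ibuprofen, MG132, propiconazole, uniconazole, 2,4,6T, Brz220, daminozide, PCIB, NPA, TIBA, prohexadione, paclobutrazol, salicylic acid, AVG, AgNO3 and CHX (cycloheximide) at 10 µM and PNO8 at 1 µM, against 1 mock group. In series F2 it lasted 12 h and 7 groups were treated, with propiconazole, uniconazole, paclobutrazol, prohexadione, Brz220 and Brz91 at 10 µM and PNO8 at 1 µM, against 1 mock group. In series G it lasted 3 h and 2 groups were treated, with PNO8 at 10 µM and Brz220 at 3 µM, against 1 mock group. Nothing in the labels tells if replicate arrays stem from different cultures, and the spread between them, on which every p-value rests, may be technical. RNA came from whole seedlings, so fewer cells of a type and less RNA per cell cannot be told apart.

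The LHCB4 genes encode CP29, a minor light-harvesting protein that sits as a monomer between the photosystem II core and the trimeric outer antenna. It binds chlorophylls and carotenoids, passes excitation energy to the core and takes part in its safe dissipation in excess light. Arabidopsis has 3 such genes. LHCB4.1 and LHCB4.2 encode the common forms, and LHCB4.3, also called LHCB8, encodes a shortened form known from plants kept in strong light.

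LHCB4.3 gave a clear signal on every array. Its rank among the probe sets of its array ran from the 76.6th to the 94.97th percentile, with a median at the 88.4th percentile. The deposited intensities of all arrays of 1 replicate number in 1 series share nearly the same 2% trimmed mean. It was 1523 for replicate 1 and 1220 for replicate 2 of F1, 1020 and 1441 for those of F2, and 1360 and 1267 for those of G, which makes 6 scaling sets. Differences within a scaling set are therefore given beside the group differences. The residual SD of LHCB4.3 was 0.42 on the log2 scale without the scaling set as a block and 0.21 with it, so that a group difference has an SE of 0.37 or 0.19.

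At 3 h in series F1, LHCB4.3 was over 2-fold above the mock in 5 treated groups. These were Brz91, an inhibitor of brassinosteroid synthesis, ibuprofen, an inhibitor of cyclooxygenases, PNO8 at 1 µM, MG132, an inhibitor of the proteasome, and propiconazole, a triazole that blocks brassinosteroid synthesis. The mock arrays, which all 18 treated groups of the series share, read 3150.5 and 2433.8 intensity units.

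With Brz91 the 2 arrays read 7657.8 and 6011.5, a log2 difference from the mock of 1.25, and the differences within the scaling sets were 1.25 and 1.26. With ibuprofen they read 8761.5 and 5128.2, a log2 difference of 1.24, and 1.44 and 1.04 within the sets. With PNO8 at 1 µM they read 7518.6 and 5957.0, a log2 difference of 1.23, and 1.22 and 1.25 within the sets. In all 3 groups both arrays lay above both mock arrays, and the replicates of Brz91 and PNO8 differed by less than 0.1 within the sets. MG132 gave 7858.0 and 5130.9, a log2 difference of 1.16, with 1.28 and 1.04 within the sets. Propiconazole gave 6801.8 and 5336.4, a log2 difference of 1.08, with 1.08 and 1.09 within the sets. The groups again did not overlap with the mock. Among all 17301 probe sets kept, the share with a difference at least as large as that of LHCB4.3 was 0.0925% for Brz91, 0.318% for ibuprofen, 0.659% for PNO8, 0.266% for MG132 and 0.156% for propiconazole.

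A second tier of F1 groups lay above the mock by less. The replicates disagreed in several of them. Uniconazole, a triazole inhibitor of gibberellin synthesis, gave 7221.3 and 2872.6, a log2 difference of 0.70, with 1.16 and 0.23 within the scaling sets. Replicate 1 was as high as in the leading groups and replicate 2, as deposited, lay between the mock arrays. 2,4,6T gave 5382.2 and 3665.5, a log2 difference of 0.66. Brz220 at 10 µM gave 6020.2 and 3208.7, a log2 difference of 0.64, with 0.91 and 0.38 within the sets. Both 2,4,6T and Brz220 had both arrays above both mock arrays. Daminozide, an inhibitor of the late steps of gibberellin synthesis, gave 5804.1 and 2983.2, a log2 difference of 0.57. PCIB, an antagonist of auxin action, gave 4563.1 and 3473.7, a log2 difference of 0.50. NPA, an inhibitor of polar auxin transport, gave 5642.9 and 2724.3, a log2 difference of 0.48, with 0.81 and 0.16 within the sets. As deposited, PCIB was the only one of these last 3 whose arrays both exceeded both mock arrays. After rescaling to a common trimmed mean, daminozide (4972 and 3192) and NPA (4834 and 2915) did so too. The mock arrays then read 2699 and 2604. Replicate 2 of uniconazole, at 3074, was then above both as well.

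The remaining F1 groups stood near the mock or below it. TIBA, another inhibitor of auxin transport, had 4010.2 and 2797.4 (0.26), prohexadione, an inhibitor of late gibberellin synthesis, had 4252.1 and 2627.6 (0.26), and paclobutrazol, a triazole inhibitor of gibberellin synthesis, had 4106.0 and 2647.6 (0.24), the number in brackets being the log2 difference from the mock. Salicylic acid, a defence hormone, had 3697.2 and 2587.1 (0.15), and AVG, an inhibitor of ethylene synthesis, had 3737.6 and 2299.7 (0.08). AgNO3, which blocks ethylene perception, had 3136.2 and 2197.4 (-0.07). As deposited, these 6 groups overlapped with the mock arrays. After rescaling to a common trimmed mean, TIBA, prohexadione, paclobutrazol and salicylic acid had both arrays above both mock arrays. AVG and AgNO3 still overlapped. Cycloheximide, which stops cytosolic protein synthesis, had the lowest mean of the series with 2966.0 and 1376.9, a log2 difference of -0.42. Its distance from the mock came mainly from replicate 2, with -0.08 and -0.77 within the scaling sets.

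**Figure D1:**
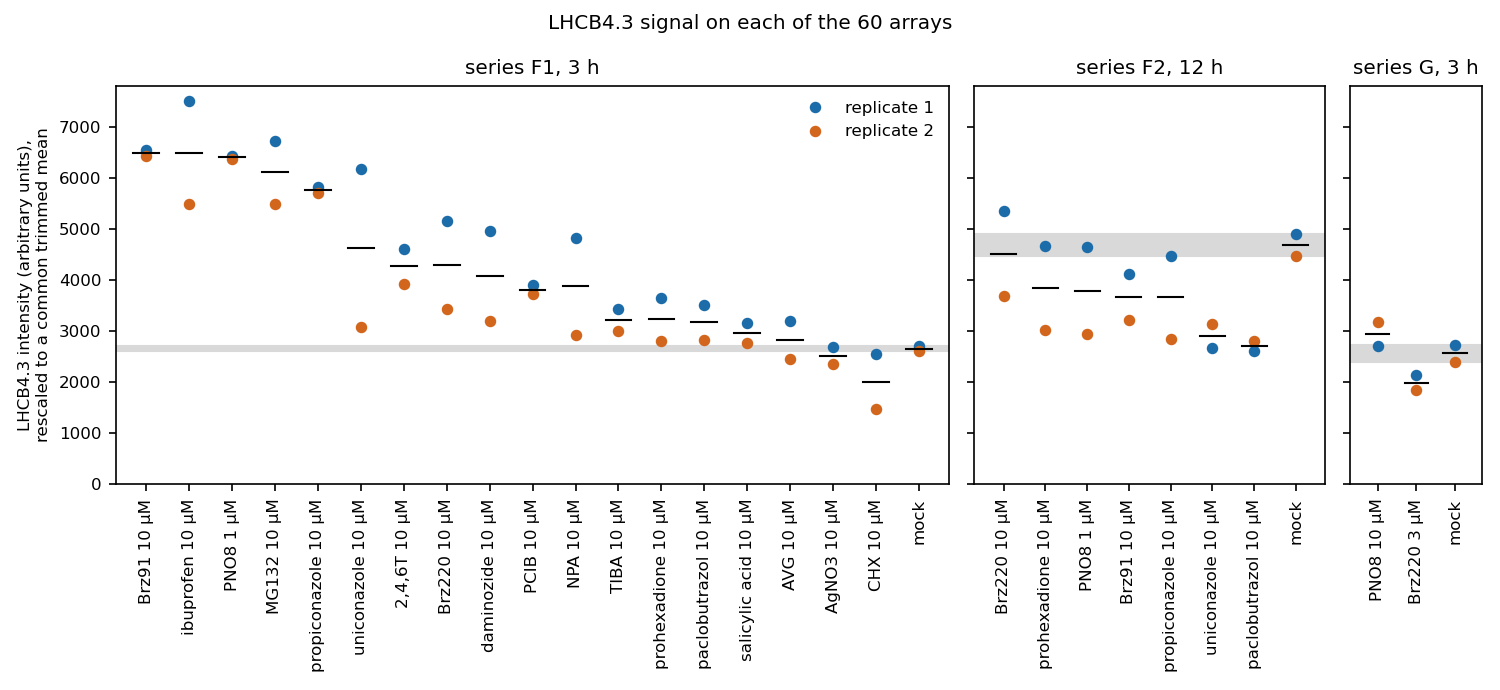
LHCB4.3 intensity on each of the 60 arrays, after every array was rescaled to a common 2% trimmed mean so that the 3 series share 1 axis (arbitrary units, linear, from 0). Points are arrays coloured by replicate number, short lines are group means, and the grey band spans the 2 mock arrays of the series. The arrays of Brz91, ibuprofen, PNO8 1 µM, MG132 and propiconazole stand well above the F1 band, and most F2 arrays lie below the F2 band.

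In series F1 as a whole, 16 of the 18 treated means were above the mock. As deposited, both arrays were above both mock arrays in 8 groups and below both in none. Of all probe set comparisons in the series, 13.2% had both arrays above and 15.3% had both below. After rescaling to a common trimmed mean, the counts were 15 above and 1 below (cycloheximide). The share of all probe sets was not computed on that scale. Set against the mock array of the same scaling set, both arrays were above it in 15 groups and both below it in 2, against 25.6% and 30.6% of all probe set comparisons. All these comparisons share the same mock arrays. Ordered by size, only 3 of the 18 steps between neighbours in F1, the mock among them, exceeded the residual SD of 0.21: from propiconazole to uniconazole, from NPA to TIBA and from AgNO3 to cycloheximide. The 5 leading groups did not differ among themselves beyond that spread, from 1.25 for Brz91 to 1.08 for propiconazole.

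**Figure D2:**
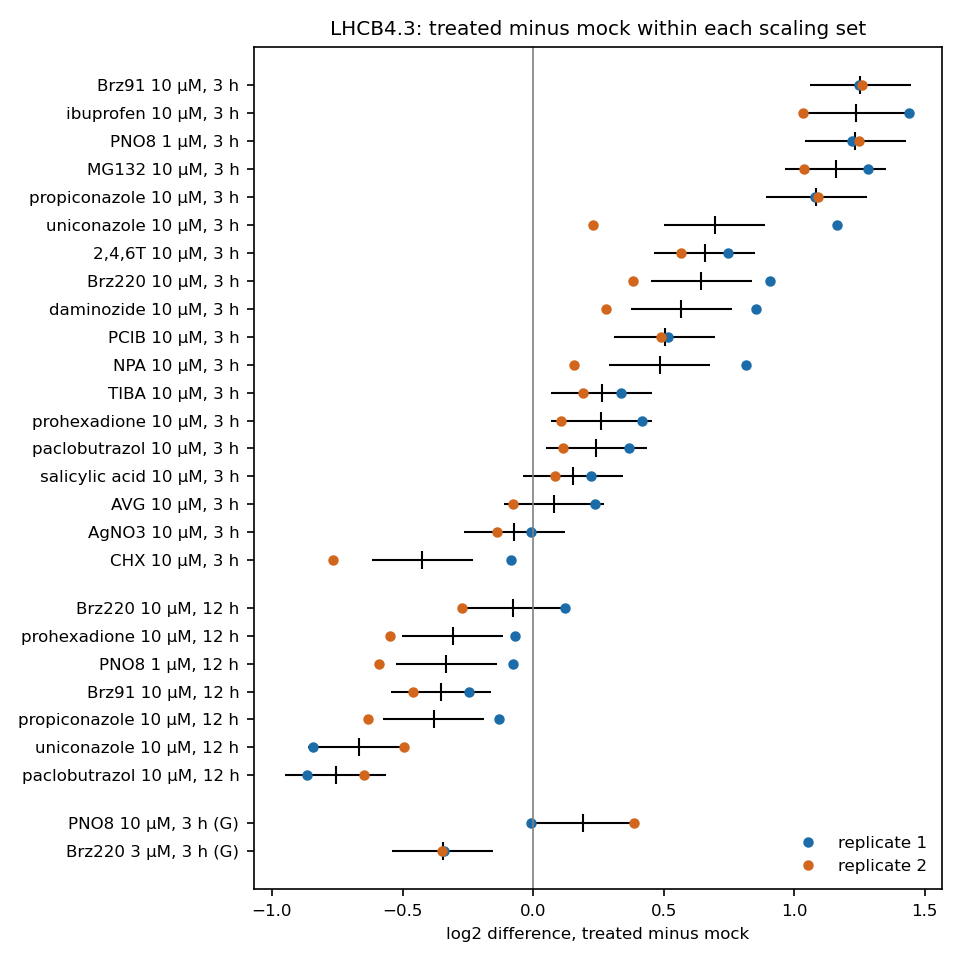
Log2 difference of LHCB4.3, treated minus mock, for the 27 treated groups of series F1 (top), F2 (middle) and G (bottom). Coloured points are the differences within a scaling set, vertical ticks their mean, and horizontal bars 1 SE of a group difference with the scaling set as a block (0.19). The 5 uppermost groups lie between 1.08 and 1.25, and every group at 12 h has a mean below 0.

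At 12 h in series F2 no treated mean was above the mock, whose arrays read 3837.0 and 4939.3. Paclobutrazol was farthest below with 2044.5 and 3106.6, a log2 difference of -0.76. Uniconazole followed with 2082.8 and 3467.2, a log2 difference of -0.67. These 2 triazole inhibitors of gibberellin synthesis had every array below both mock arrays and below the mock array of its own scaling set, by 0.49 to 0.87. Propiconazole had 3497.4 and 3140.7 (-0.38), Brz91 had 3212.3 and 3558.0 (-0.35), PNO8 at 1 µM had 3632.5 and 3240.2 (-0.33) and prohexadione had 3648.2 and 3339.3 (-0.31). Brz220 was the exception, with 4185.4 and 4067.9, a log2 difference of -0.08 and opposite signs within the scaling sets (0.12 and -0.27).

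Both arrays were below both mock arrays in 6 of the 7 groups at 12 h, where 8.5% of all probe set comparisons in series F2 did so. After rescaling to a common trimmed mean 3 of the 7 did, Brz91, uniconazole and paclobutrazol, because replicate 1 of propiconazole, prohexadione and PNO8 then reached the level of the mock arrays. Only 2 of the 7 steps in the F2 order exceeded the residual SD, from Brz220 to prohexadione and from propiconazole to uniconazole. In each of the 7 groups the log2 difference from the mock was lower at 12 h than at 3 h. For Brz91 it was -0.35 at 12 h against 1.25 at 3 h, for PNO8 at 1 µM -0.33 against 1.23, and for propiconazole -0.38 against 1.08. For uniconazole it was -0.67 at 12 h against 0.70 at 3 h, and for paclobutrazol -0.76 against 0.24. The smallest contrasts were those of Brz220 (-0.08 at 12 h, 0.64 at 3 h) and prohexadione (-0.31 at 12 h, 0.26 at 3 h).

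The mocks of the series stood at different levels themselves. After rescaling to a common trimmed mean, the 12 h mock of F2 averaged 4692 ± 311 intensity units, against 2652 ± 66.9 for the 3 h mock of F1 and 2562 ± 241 for the 3 h mock of G (SD, n = 2 each). On this scale Brz91, PNO8 at 1 µM and propiconazole averaged 3667, 3792 and 3661 at 12 h, against 6497, 6408 and 5769 at 3 h. All 3 were thus below the mock of their own time at 12 h but above the 3 h mock. The treatment time and the array series cannot be told apart in this comparison, because every 12 h group belongs to F2.

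**Figure D3:**
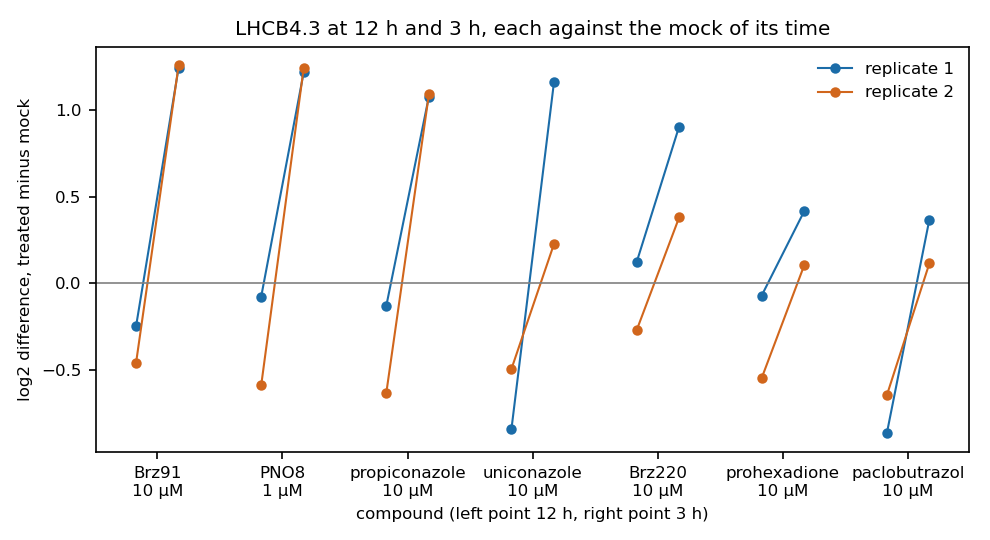
Log2 difference of LHCB4.3, treated minus mock, at 12 h (left point, series F2) and 3 h (right point, series F1) for the 7 compounds given at both times. Each line joins arrays of the same replicate number, which is only a label across the series. Every line is lower at 12 h than at 3 h, and at 12 h only replicate 1 of Brz220 (0.12) is above 0.

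In series G both doses differed from those used in F1, so the values are given side by side without a test. PNO8 at 10 µM read 2830.4 and 3077.8, against 2847.2 and 2321.8 in the mock, a log2 difference of 0.19. PNO8 at 1 µM in F1 had a log2 difference of 1.23. Brz220 at 3 µM read 2218.4 and 1792.3, a log2 difference of -0.35, and both of its arrays were below both mock arrays. The same held for 16.3% of all probe sets with Brz220 at 3 µM, and for 24% of all probe set comparisons in the series. Brz220 at 10 µM in F1 had a log2 difference of 0.64.

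In 4 pairs, compounds with a known relation were set side by side for LHCB4.3, as log2 differences between the 2 compounds with their values in the scaling sets and no test. Propiconazole, uniconazole and paclobutrazol are all triazoles, and uniconazole carries a carbon double bond that paclobutrazol lacks. At 3 h propiconazole minus paclobutrazol was 0.84, with 0.71 and 0.98 in the sets. Uniconazole minus paclobutrazol was 0.45, with 0.79 in replicate 1 and 0.11 in replicate 2. Propiconazole minus uniconazole was 0.39, with -0.08 and 0.86, so these replicates had opposite signs. Brz91 minus Brz220, both at 10 µM, was 0.61, with 0.34 and 0.88.

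At 12 h propiconazole minus paclobutrazol was 0.38, with 0.74 and 0.015 in the sets. Propiconazole minus uniconazole was 0.29, with 0.71 and -0.14, and the replicates again had opposite signs. Uniconazole minus paclobutrazol was 0.09, with 0.025 and 0.15. Brz91 minus Brz220 was -0.28, with -0.37 and -0.19, the opposite sign to 3 h in both sets.

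No other measured gene of light harvesting or photosynthesis was called higher in any of the 27 comparisons. Of 20 listed antenna genes 2 had a probe set of their own and passed the filter on dim signals, LHCB4.1 and LHCB4.2, and of 82 other photosynthesis genes 18 did. In the 5 groups where LHCB4.3 stood highest, none of the 20 was called in either direction by limma at an adjusted p of 0.05, with or without the scaling set as a block. Calls were rare in these groups, with 0.183% of all probe set tests called higher and 0.0509% lower, or 0.687% and 0.637% with the block, so the count of 0 is near that of all probe sets. Over all 27 comparisons, or 540 tests, 0 were called higher and 9 lower (12 tests in all had an unadjusted p under 0.05), where 1.18% of all probe set tests were called higher and 1.13% lower. With the block the counts were 0 higher and 25 lower, against 2.12% and 2.89% of all tests. The median log2 difference of the 20 genes in the 5 groups lay between -0.03 for propiconazole and 0.13 for ibuprofen, and that of all probe sets between -0.02 and -0.01.

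**Figure D4:**
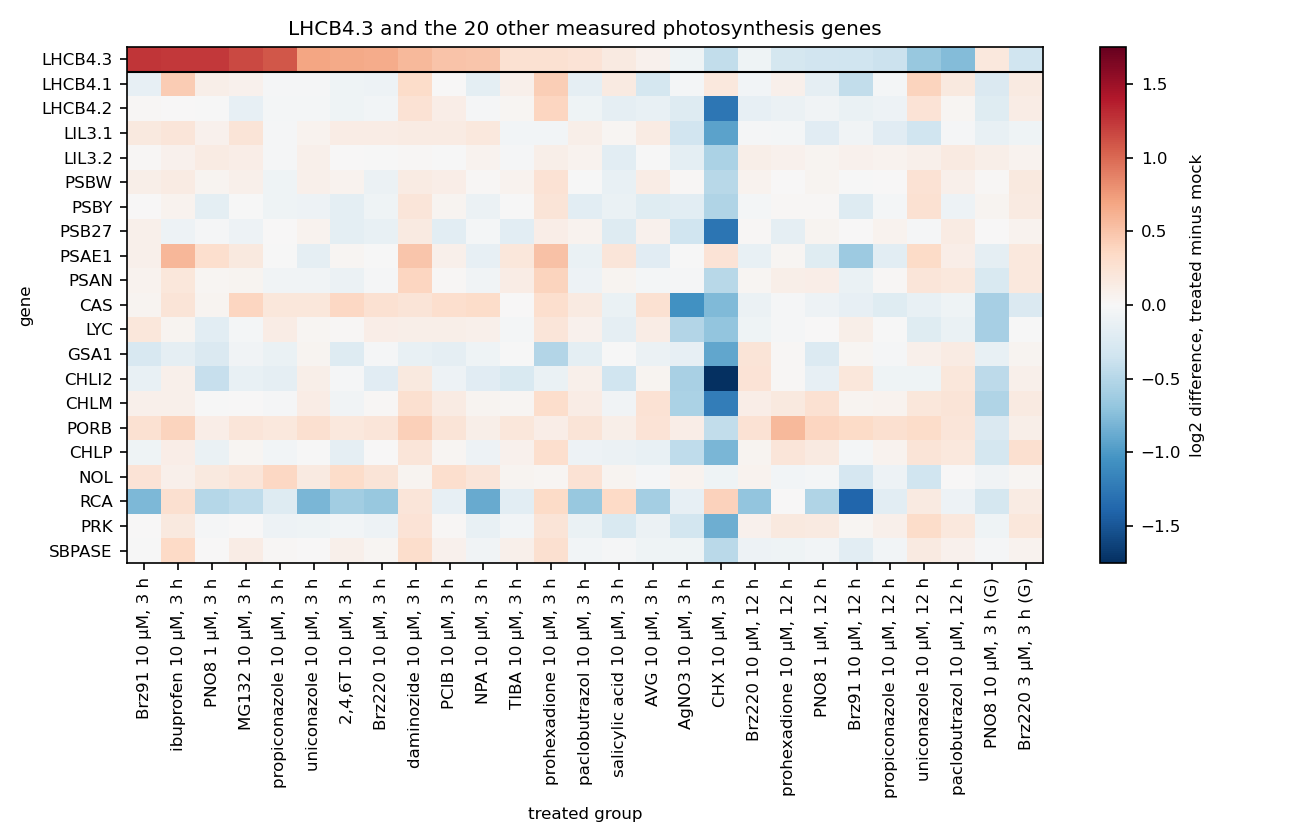
Log2 difference, treated minus mock, of LHCB4.3 (top row) and the 20 other measured photosynthesis genes in the 27 treated groups, ordered by series and by the LHCB4.3 difference. Red is higher and blue lower than the mock. LHCB4.3 is above 1 in the 5 leftmost columns while the other rows there stay below 0.6, and the column of cycloheximide (CHX) is the bluest.

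LHCB4.2 encodes one of the common CP29 forms. Its arrays read 24233.7 and 31372.7 with Brz91, 26725.7 and 28036.7 with ibuprofen, 23480.0 and 31001.2 with PNO8 at 1 µM, 25834.4 and 23429.9 with MG132 and 24881.6 and 28126.1 with propiconazole, against 30008.1 and 24637.5 in the F1 mock. All 5 groups overlapped with the mock. The log2 differences lay between -0.14 and 0.02, and the widest of their 95% bounds with the block were -0.55 and 0.43. LHCB4.1, the other common form, read 21861.5 and 32563.8 with Brz91, 37785.0 and 42442.3 with ibuprofen, 25055.7 and 39747.1 with PNO8 at 1 µM, 36217.5 and 26836.8 with MG132 and 25969.8 and 32330.9 with propiconazole, against 28320.1 and 30748.8 in the mock. Its 2 ibuprofen arrays were both above both mock arrays, as in 15.6% of all probe sets. The log2 difference of LHCB4.1 with ibuprofen was 0.44 (95% interval with the block -0.17 to 1.05, limma adjusted p = 0.54 with the block). The other 4 differences of LHCB4.1 lay between -0.14 and 0.10. LHCB4.1 was called in 0 and LHCB4.2 in 1 of the 27 comparisons.

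In these 5 groups the 2 photosynthesis genes with the largest differences varied from compound to compound, and none passed the test. RCA, which encodes the activase of the carbon-fixing enzyme Rubisco, was among them with Brz91 (-0.79), PNO8 at 1 µM (-0.50), MG132 (-0.44) and propiconazole (-0.23), but its arrays scattered widely, with 7219.8 and 15586.6 for Brz91 against 16665.1 and 20385.1 for the mock. GSA1, an enzyme of 5-aminolevulinate synthesis, was the other for Brz91 (-0.28). For ibuprofen they were PSAE1, a photosystem I subunit (0.59), and LHCB4.1. CHLI2, a subunit of magnesium chelatase, was the other for PNO8 at 1 µM (-0.41), CAS, a thylakoid calcium-sensing protein, for MG132 (0.37), and NOL, a chlorophyll b reductase, for propiconazole (0.36).

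Nearly all calls of photosynthesis genes were decreases with cycloheximide. Of the 20 genes, 8 were called lower and 0 higher by limma, where 20.8% of all probe sets were called lower in this comparison. With the block 16 were lower, against 35.6% of all probe sets. CHLI2 read 1753.3 and 1387.9 with cycloheximide, against 6351.2 and 4791.6 in the mock, and fell by 1.74 log2 units (SE 0.34, limma adjusted p = 2.59e-05). PSB27, an assembly factor of photosystem II, fell by 1.27 (limma adjusted p = 0.000963). LHCB4.2 read 14632.1 and 8599.4 with cycloheximide, against 30008.1 and 24637.5 in the mock, and fell by 1.27 (SE 0.34, limma adjusted p = 0.00202). In all 3 genes the cycloheximide arrays lay below both mock arrays, as they did in 42.2% of all probe sets.

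CHLM, which methylates magnesium protoporphyrin in chlorophyll synthesis, fell by 1.21 with cycloheximide (limma adjusted p = 0.0015). LIL3.1, a light-harvesting-like protein that anchors enzymes of chlorophyll synthesis, fell by 0.94 (limma adjusted p = 0.00811). GSA1, PRK and CAS, of which PRK is the phosphoribulokinase of the Calvin cycle, fell by 0.91, 0.86 and 0.77. LHCB4.1 was not called, with 30986.3 and 36317.1 with cycloheximide, against 28320.1 and 30748.8 in the mock. Its difference was 0.18 (95% interval with the block -0.42 to 0.79). LHCB4.3 itself had a difference of -0.42 there. The calls rested partly on single arrays. Over all 27 comparisons there were 4 in place of 9 without replicate 1 of the F1 mock and 4 without replicate 2 of cycloheximide.

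The ninth call was CAS with AgNO3, with 6750.0 and 6537.5, against 14155.5 and 13922.7 in the mock, where it fell by 1.06 (limma adjusted p = 0.00714) and 5.14% of all probe sets were called lower. With the block 6 of the 20 genes were lower in that group, against 15.9% of all probe sets. Beyond cycloheximide and AgNO3, the block added 3 lower calls with PNO8 at 10 µM, namely CAS, LYC, the lycopene cyclase of carotenoid synthesis, and CHLM, where 7.35% of all probe sets were lower. The response at 12 h was also tested against that at 3 h, with an interaction term for each of the 29 measured genes of all lists and the 7 compounds. None of these 203 tests was called (2 had an unadjusted p under 0.05, and 0.0239% of all such tests over the probe sets were called).

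Of the genes listed as regulators, 5 of 58 were measured. ZAT10, a zinc finger protein of stress responses, rose by 5.48 with cycloheximide, 2.82 with AgNO3, 2.81 with PNO8 at 10 µM and 2.45 with TIBA (limma adjusted p at most 5.07e-09). Of all probe sets 14.7%, 6.78%, 3.47% and 3.21% were called higher in these groups, in the same order. In the 5 groups with the highest LHCB4.3 its differences were between -0.17 and 0.11, and no listed regulator was called there. HYH, a bZIP factor of the light response, rose by 1.13 with PNO8 at 10 µM (limma adjusted p = 0.00408). With the block HYH was also higher with TIBA (0.57, limma adjusted p = 0.0174), where 6.49% of all probe sets were higher. With the block GI, listed under the circadian clock, was lower with AgNO3 (-0.89), salicylic acid (-0.81) and PNO8 at 10 µM (-0.70). Its limma adjusted p was at most 0.0351, and 15.9%, 4.81% and 7.35% of all probe sets were lower in these groups.

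Of 25 markers of other cells, 4 were measured: EXPA7 and EXPA18, expansins of root hair cells, ICL, an enzyme that uses seed oil, and FAMA, a guard cell factor. Over the 27 comparisons they had 8 lower and 0 higher calls in 108 tests, all for the root hair genes. EXPA18 fell, with log2 differences of -2.60 with AgNO3, -2.37 with TIBA, -2.14 with PNO8 at 10 µM, -1.60 with 2,4,6T and -0.94 with cycloheximide (limma adjusted p at most 0.0298). EXPA7 fell, with differences of -1.83 with AgNO3, -1.77 with TIBA and -1.48 with PNO8 at 10 µM (limma adjusted p at most 0.00107). LHCB4.3 had log2 differences of -0.07 with AgNO3, 0.26 with TIBA, 0.19 with PNO8 at 10 µM, 0.66 with 2,4,6T and -0.42 with cycloheximide. None of the 4 markers was called in the 5 groups with the highest LHCB4.3 without the block. With the block EXPA18 was lower with MG132 (-1.06, limma adjusted p = 0.0475) and ibuprofen (-1.02, limma adjusted p = 0.0496), and EXPA7 was lower with MG132 (-0.97, limma adjusted p = 0.0447), where 1.1% of all probe sets were lower with MG132 and 1.14% with ibuprofen. EXPA18 read 1152.3 and 1188.8 with MG132 and 1064.1 and 1362.4 with ibuprofen, against 3323.7 and 1989.6 in the mock. The part of these markers in the level of LHCB4.3 was not tested. With Brz91, PNO8 at 1 µM and propiconazole none of the 4 markers was called in either fit.

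The genes whose pattern was most like that of LHCB4.3 were found by Pearson correlation over the 60 arrays, each centred on the mean of its scaling set, among 9600 other probe sets that name 1 gene. The arrays share their treatments and mocks, so these values are descriptions without a p. The median correlation of all of them was 0.07, and 99% lay below 0.57. AT1G47400, which encodes a small peptide known from iron-starved plants, came first with 0.81 (Spearman's rho 0.75), with 0.86 within the arrays of F1 and 0.51 within those of F2. Over the 27 group differences AT1G47400 ranked 4th by Pearson correlation (0.88) and 16th by Spearman's (0.84). AT1G07440 followed over the arrays with 0.76, but had 0.13 within those of F2. Then came AT3G19000 with 0.72, AT4G28740 and AT1G80500 with 0.71 each, and AT4G18810 and AT5G05250 with 0.70 each. AOR, an alkenal reductase of the chloroplast, had 0.69, CHIL, a chalcone isomerase-like protein, 0.68, and AT5G06130 0.67.

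In F1 the highest 5 groups of AT1G47400 were the same as those of LHCB4.3. It read 6724.7 and 5119.6 with Brz91, 8752.5 and 5176.2 with ibuprofen, 8802.3 and 6172.9 with PNO8 at 1 µM, 7096.3 and 6192.5 with MG132 and 6146.6 and 4942.2 with propiconazole, against 1718.9 and 685.4 in the F1 mock. Every array of these groups was above both mock arrays. Its log2 differences there were 2.197 to 2.61, larger than the 1.08 to 1.25 of LHCB4.3. With cycloheximide it read 356.4 and 412.1, a log2 difference of -1.25. The mock levels of the 2 genes differed between the 3 h series. In the G mock AT1G47400 read 5923.0 and 5965.0, within the range of the 5 leading F1 groups. LHCB4.3 read 2847.2 and 2321.8 in the G mock, against 3150.5 and 2433.8 in the F1 mock. Centring on the scaling set takes such differences between series out of the correlations. At 12 h AT1G47400 read 3259.3 and 4505.5 with propiconazole and 5241.8 and 5150.0 with Brz220, against 1920.8 and 2602.0 in the F2 mock. Its arrays lay above the mock in both groups, where LHCB4.3 had log2 differences of -0.38 and -0.08. Without the 2 cycloheximide arrays its correlation with LHCB4.3 was 0.78 and still the highest, and 7 of the 10 genes kept a place among the first 10.

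**Figure D5:**
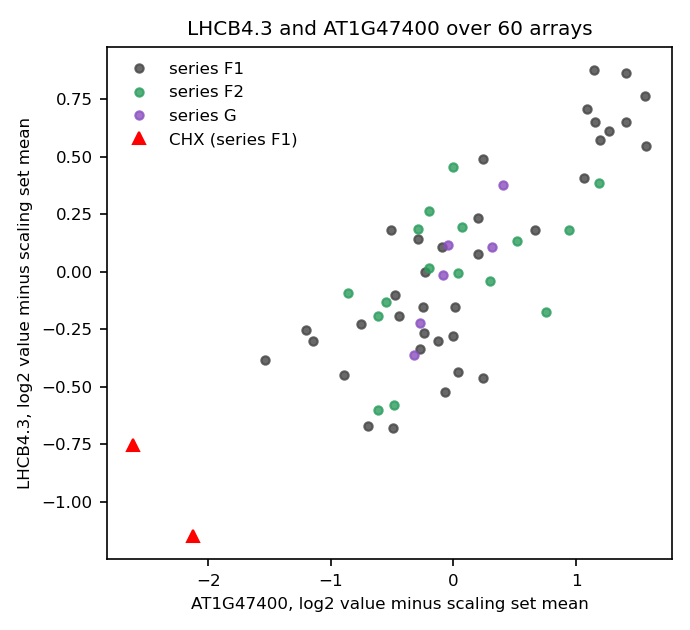
LHCB4.3 against AT1G47400 on the 60 arrays, both as log2 values minus the mean of the scaling set, coloured by series. Red triangles are the 2 cycloheximide arrays, which lie lowest for both genes. The F1 arrays at the upper right are those of Brz91, ibuprofen, PNO8 1 µM, MG132 and propiconazole.

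The likeness of the other genes was smaller in size. The 10 genes' differences in the 5 groups ranged from 0.02 to 1.204 when AT1G47400 is left aside, with AT5G05250 at 0.96 to 1.204 and CHIL at 0.44 to 0.75. At the other end of the scale stood AT3G20510 (-0.72), AT2G31090 (-0.67), AT1G32690 and UGT73D1, a glycosyltransferase (-0.63 each), and AT2G32150 (-0.62). These 5 were all higher with cycloheximide, by 0.93 to 3.93 log2 units.

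The photosynthesis genes ranked between 68th (LIL3.1) and 8206th (RCA) of 9600, and over the 60 arrays most lay above the median correlation of 0.07. Spearman's rho was lower for most of them, with 0.03 for CHLM against 0.32 by Pearson correlation. LIL3.1 was the closest with a correlation of 0.59, followed by LIL3.2 with 0.52, CAS with 0.48 and NOL with 0.44. Within the arrays of F2 the values of LIL3.1, CAS and NOL were 0.48, 0.29 and 0.60, but that of LIL3.2 was -0.29. Most of the other photosynthesis genes were below 0 within F2, down to -0.54 for CHLP and -0.66 for PRK. Among them only LYC (0.44), CHLI2 (0.26) and GSA1 (0.08) were above 0. LHCB4.2 had 0.26 and LHCB4.1 -0.06, with Spearman's rho of -0.01 and -0.07. RCA was the lowest of the photosynthesis genes with -0.26. Of the genes next to LHCB4.3 on the chromosome only AT2G40110 was measured, and its correlation was -0.33.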

How the data were processed

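The authors deposited 1 linear intensity per probe set and array. Per the submitters' processing notes the tool was MAS5, with its version and scaling target not given in the sources read. Of 22810 probe sets, 64 controls were left out. All work was done on log2(value + 133.4). This pseudocount is the median of the arrays' 20th percentiles and understates differences of dim genes. The filter asked for a signal over the 40th percentile of the array in 2 or more arrays, which left 17301 of 22746. Group means over all 60 arrays were fitted with limma 3.58.1 (R 4.3.3; 30 residual degrees of freedom, 27 with the scaling set as a block), with an intensity trend, two-sided tests and a Benjamini-Hochberg threshold of 0.05 over all probe sets kept in a comparison. The number of arrays limits the precision.

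Of the probe sets, 13513 name 1 gene, 503 several and 8730 are unlisted in the annotation used; 13436 matched the TAIR10.1 gene table. Of 185 genes on 17 lists, 29 were measured; the brightest probe set stood for a gene. Named genes were LHCB4.3, the 10 most and 5 least alike, photosynthesis genes that were called or had the 2 largest differences in a comparison described, called regulators and markers, and measured neighbours. LHCB4.3, the lists and the tests were chosen with earlier results of these data known. On data simulated for propiconazole at 3 h over 17301 probe sets, the fit recovered 34% of changes of 1 log2 unit and 99% of changes of 2, with 6 false calls. Alternatives were quantile normalization, a common trimmed mean, no pseudocount, no filter, 1 series alone, another control, the replicate block, each array left out, and other measures of likeness. Replicates of a group correlated at 0.959 to 0.982 across probe sets.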

Additional observations from a re-analysis of the deposited data

Results flagged for a closer look

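For 6 compounds, every array was above the mock array of its scaling set at 3 h and every array below it at 12 h. Several of these differences were within the residual SD of 0.21. At 12 h replicate 1 was at -0.07 for prohexadione, -0.08 for PNO8 and -0.13 for propiconazole. At 3 h replicate 2 was at 0.10 for prohexadione and 0.12 for paclobutrazol. All 6 compounds share the mock arrays of each time. The share of all probe sets with such a reversal was not computed. The log2 difference of LHCB4.3 from the mock, 12 h minus 3 h, was -1.61 for Brz91, -1.57 for PNO8 at 1 µM, -1.47 for propiconazole, -1.36 for uniconazole, -0.998 for paclobutrazol and -0.57 for prohexadione. These differences between times were not tested, because the gene was chosen for its pattern over these arrays, and time and array series cannot be told apart.

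Brz220 at 10 µM in F1 had both arrays above its mock and Brz220 at 3 µM in G had both below. Of all probe sets, 10.5% had both arrays above both mock arrays with Brz220 at 10 µM. With Brz220 at 3 µM 16.3% had both below. The difference of these 2 responses of LHCB4.3 was 0.99 log2 units. It was not tested, and the dose and the array series cannot be told apart.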

How the results depend on the processing

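The log2 differences of LHCB4.3 were recomputed under quantile normalization, a common trimmed mean, no pseudocount and, for F1, the joint F1 and G mock. None of these 99 values moved by more than 0.42, the residual SD without the block. With 1 array left out, 10 of 108 values moved by more, 2 each for 5 groups at 3 h: uniconazole (0.050 to 1.34), NPA (-0.023 to 0.99), Brz220 at 10 µM (0.20 to 1.08), daminozide (0.10 to 1.03) and cycloheximide (-0.94 to 0.094). The 5 leading groups ranged from 1.08 to 1.43 for Brz91, 0.86 to 1.62 for ibuprofen, 1.06 to 1.41 for PNO8 at 1 µM, 0.86 to 1.46 for MG132 and 0.91 to 1.26 for propiconazole. The groups with both arrays above both mock arrays numbered 8 as deposited, 16 under quantile normalization, 15 with a common trimmed mean and 15 with each array against the mock array of its number (the replicate block). Those with both below numbered 7, 7, 5 and 9 in the same order, and in F2 alone 6 as deposited and 3 with a common trimmed mean. The lower calls of photosynthesis genes numbered 9, but 25 with the replicate block, 24 under quantile normalization, 20 with the arrays of 1 series alone, and 4 to 10 with 1 array left out. The higher calls were 0 in all of these. Of the 10 genes most like LHCB4.3, 6 were shared under Spearman's correlation and 2 when the 27 group differences were correlated; the cause was not tested. Same-numbered arrays of treated and mock groups deviated together with correlations of 0.003 to 0.250 (median 0.147, over 0.1 in 20 of 27 groups), so the numbers are not shown to pair the samples.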

Other observations

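Because AT1G47400 headed the likeness ranking, genes known to respond to low iron in Arabidopsis were listed after these values had been seen, so their counts support nothing. Of the 23 known to rise in low iron 7 were measured, and 4 correlated with LHCB4.3 above 0: AT1G47400 with 0.81, PYE, a bHLH regulator, with 0.64, BTSL1, an E3 ligase, with 0.60 and BHLH101, a bHLH regulator, with 0.51. The other 3 did not, with -0.06 for S8H and -0.09 for BTSL2, and -0.21 for AT3G13610. The only measured gene of the 10 known to fall was SAPX, with -0.04. The median over all probe sets was 0.07. Without the cycloheximide arrays S8H had 0.12, BTSL2 0.14, AT3G13610 -0.13 and SAPX -0.33. AT1G47400, PYE, BTSL1 and BHLH101 then had 0.78, 0.62, 0.54 and 0.44. The signs of S8H and BTSL2 thus depended on the cycloheximide arrays. PYE had log2 differences from the mock of 0.95 to 1.08 in the 5 groups where LHCB4.3 stood highest, BHLH101 of 0.44 to 1.23 and BTSL1 of 0.46 to 0.97. The other 3 genes known to rise were near 0 or mixed there. S8H had -0.03 to 0.39, BTSL2 -0.09 to 0.16 and AT3G13610 -0.32 to 0.60. SAPX had -0.69 to -0.18.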
